A study of Homo sapiens with 4 samples.

Results

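The SOCS family of cytokine signaling suppressors was examined in THP1 cells in which MLL-AF9 had been knocked down. Members were all probes named SOCS1, SOCS2, SOCS3, SOCS4, SOCS5, SOCS6, SOCS7 or CISH that were not control spots and carried a weight above 0 on all 4 arrays. This gave 8 probes, 1 per gene and each printed on 1 spot, out of 26219 probes analysed. SOCS2 was lower and SOCS3 was higher after knockdown at an unadjusted p below 0.005 in limma. The other 6 members did not pass this test, and 0 members had an adjusted p below 0.05. Both calls depended on the processing, as given below.

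THP1 is a monoblastic line of acute myeloid leukemia (AML M5) that carries the MLL-AF9 fusion gene. All cells received siRNA on days 0, 3 and 6, had their serum lowered from 10% to 0.5% on day 6 and gave RNA on day 8. The knockdown group comprised 1 array each for siRNA-A and siRNA-B, which target the fusion point of the MLL-AF9 transcript, and the control group comprised 1 array each for control siRNA-1 and control siRNA-2, both non-targeting. Each of the 4 arrays held a pool of 5 experiments in a single cell line, so that p-values measure the spread between these pooled arrays, and their number limits the precision. Arrays of the same group also differ in siRNA, so that this spread includes differences between siRNAs. All arrays lay on 1 slide, and effects of treatment and of slide position cannot be told apart.

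SOCS proteins are feedback inhibitors of cytokine receptors. Cytokines activate receptor-bound JAK kinases, which phosphorylate STAT transcription factors, and STATs in turn induce several SOCS genes. Each member has an SH2 domain that binds phosphorylated tyrosine and a SOCS box that recruits a ubiquitin ligase of elongins and a cullin. SOCS1 and SOCS3 also carry a region that blocks the kinases directly.

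The probes are shown for both members that passed the test and for SOCS4, which lay next in order of p. Each is a 60-base oligonucleotide, of which the first 30 bases are printed in lower case, 5′ to 3′ as the scanner tables list them. The SOCS2 probe lies at chr12:93969799-93969858 on the plus strand of hg19, the SOCS3 probe at chr17:76353127-76353186 on the minus strand and the SOCS4 probe at chr14:55516046-55516105 on the plus strand. Exon and UTR annotation of hg19 was not used here.
SOCS2 probe: ccaagttgtccttgaattgtctaaccatgg
SOCS3 probe: gcaactaaacaaacacaaagtattctgtgt
SOCS4 probe: caggcttgtatgatctattccttaccacaa

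To check the labels, MLLT3, the gene of AF9, was examined first. Its probes A_23_P216693 and A_24_P192627 do not separate the fusion from the normal transcript. In the order siRNA-A, siRNA-B, control siRNA-1 and control siRNA-2, the log2 intensity of the former was 6.82, 6.87, 7.59 and 7.61, and that of the latter was 6.44, 6.55, 7.02 and 7.24. Both probes were lower in both knockdown arrays, with log2 fold changes of -0.76 and -0.63 (limma, adjusted p = 0.0639 and 0.182). Of 8 myelomonocytic markers 7 were analysed here, and these 7 (CD33, MPO, CD68, CSF1R, ITGAM, ITGB2 and SPI1) were well above background on all arrays. Markers of other cells were also well above background on all arrays for 4 of 4 T cell, 3 of 4 B cell, 2 of 3 erythroid, 1 of 4 fibroblast and 0 of 3 epithelial genes, and 0 of the markers tested were called by limma. An unadjusted p below 0.05 was found for 2 of 3 erythroid markers and for the 1 epithelial marker tested, against 7.88% of all genes with a symbol. All had positive log2 fold changes of at most 0.39, and the epithelial one was not well above background on all arrays. In the other lists 0 markers had such a p. Their part in the values of the members was not tested. Where such genes or members differ between arrays of whole cultures, fewer cells of a type and less RNA per cell cannot be told apart.

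All values below are log2 of the deposited intensity, and a log2 fold change is the knockdown mean minus the control mean. All 8 members were well above background on all 4 arrays, with 0 outlier flags and 0 saturated spots. A probe was called at an unadjusted two-sided p below 0.005 in limma, which is the first of the criteria in the study's methods. The methods also ask for a change over identical spots of a probe (p below 0.05), which does not apply to members with 1 spot each and was not asked of the averaged probes counted over the whole array. Of the 8 members 2 were called, against 1.32% of all probes. Of these 1 was lower, against 0.732% of all probes called lower, and 1 was higher, against 0.584% called higher. At an adjusted p below 0.05 there were 0 members, against 0.118% of all probes. An unadjusted p below 0.05 was found for 3 members, against 8.06% of all probes. With 2 arrays per group, an exact permutation test cannot give a two-sided p below 0.333 for any single gene.

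**Figure D1:**
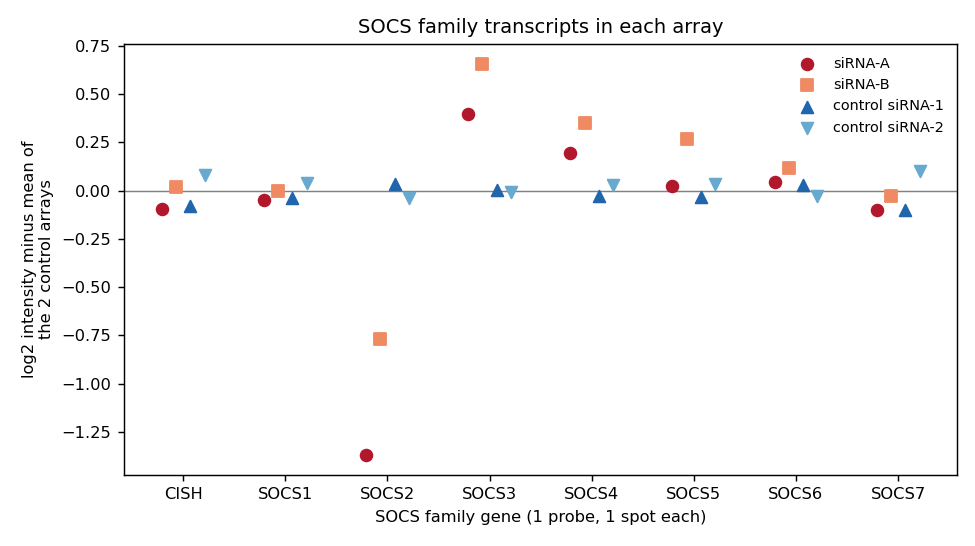
Log2 intensity of each SOCS family probe minus the mean of the 2 control arrays (y axis), with 1 point per array for each gene (x axis). Both knockdown arrays lie far below the controls for SOCS2 (-1.37 and -0.77) and above them for SOCS3 (0.40 and 0.66), while the points of CISH, SOCS1, SOCS5 and SOCS7 overlap between groups.

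CISH and SOCS2 are both known as STAT5-induced inhibitors of growth hormone and related cytokine signaling. For SOCS2, the log2 intensity was 11.90 with siRNA-A, 12.50 with siRNA-B, 13.30 with control siRNA-1 and 13.23 with control siRNA-2. Both knockdown arrays were therefore below both control arrays, with a mean of 12.20 ± 0.42 (SD, n = 2) against 13.27 ± 0.050 (SD, n = 2). The log2 fold change was -1.07 (SE 0.18, 95% interval -1.48 to -0.66; limma, unadjusted p = 0.00027, adjusted p = 0.129). This corresponds to 47.6% of the control intensity and was the 55th smallest p and the 21st largest fall of all probes. SOCS2 was one of the transcripts that the study picked from these arrays for RT-qPCR, so that its call here is not independent evidence of its direction.

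The SOCS2 intensity was lower with siRNA-A than with siRNA-B. The difference from the control mean on the log2 scale was -1.37 for the siRNA-A array and -0.77 for the siRNA-B array. The difference between siRNA-A and siRNA-B was -0.60, against -0.071 between control siRNA-2 and control siRNA-1. As each siRNA was hybridised on 1 array, the difference between siRNAs was not tested. The call of SOCS2 was lost without control siRNA-1 (log2 fold change -1.03, unadjusted p = 0.0252 in limma) and, with control siRNA-2 left out, it was lost too (-1.11, unadjusted p = 0.0204 in limma). With the processed signal of the scanner software, which is corrected for spatial and multiplicative trends across the array, the log2 fold change was of similar size but not called, at -1.09 after scaling (unadjusted p = 0.00698 in limma) and -1.13 without scaling (unadjusted p = 0.00621 in limma).

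CISH did not pass the test. Its log2 intensity was 10.62 with siRNA-A, 10.73 with siRNA-B, 10.64 with control siRNA-1 and 10.80 with control siRNA-2, and the groups overlapped. The log2 fold change was -0.038 (SE 0.12, 95% interval -0.30 to 0.23; limma, unadjusted p = 0.757). The 95% intervals of CISH and SOCS2 did not overlap, but the difference between both fold changes was not tested.

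The promoter of CISH is shown because it was the only one among the members with a table entry to hold a STAT motif. RefSeq promoters on GRCh38.p14, each reaching from 250 bases before to 50 bases after a transcription start, were matched for 5 members (CISH, SOCS1, SOCS3, SOCS4 and SOCS6) in 6 windows. They were searched for TTCNNNGAA, a palindrome that reads alike on both strands. This motif was found 4 times, all in CISH, starting 241, 230, 129 and 112 bases before the start, whereas 7.66% of all 35116 promoter windows held it at least 1 time. The form with a longer spacer, TTCNNNNGAA, likewise a palindrome, was found in 0 of the 6 windows and in 6.44% of all windows. These matches describe the sequence and are no measure of binding. The 250 bases before the start at chr3:50611775-50612024 on the minus strand of GRCh38.p14 are printed 5′ to 3′ with the 4 matches in capitals.
CISH promoter: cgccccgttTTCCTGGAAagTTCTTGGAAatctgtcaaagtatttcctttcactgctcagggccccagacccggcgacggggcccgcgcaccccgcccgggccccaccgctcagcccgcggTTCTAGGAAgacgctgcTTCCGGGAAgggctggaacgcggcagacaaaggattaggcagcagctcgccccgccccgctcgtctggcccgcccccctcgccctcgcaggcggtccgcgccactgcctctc

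SOCS3 and SOCS1 are the members with a kinase inhibitory region. SOCS3 binds to receptors of the IL6 family and is known to limit STAT3 signaling, whereas SOCS1 mainly limits interferon signaling. The log2 intensity of SOCS3 was 7.45 with siRNA-A, 7.71 with siRNA-B, 7.06 with control siRNA-1 and 7.05 with control siRNA-2. Both knockdown arrays were above both control arrays, with a mean of 7.58 ± 0.19 (SD, n = 2) against 7.06 ± 0.0077 (SD, n = 2). The log2 fold change was 0.53 (SE 0.12, 95% interval 0.24 to 0.81; limma, unadjusted p = 0.00245, adjusted p = 0.286), which is a 1.44-fold higher intensity.

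SOCS3 gave a dim spot. On the linear scale its deposited intensity was 175 with siRNA-A, 210 with siRNA-B, 133.5 with control siRNA-1 and 132.5 with control siRNA-2, with a local background of 19.5 to 22. The processed signals of the scanner software were 153.6, 187.5, 109.3 and 101.6. With the processed signal the log2 fold change was 0.69 without scaling (unadjusted p = 0.00773 in limma) and 0.72 after scaling each array to its 75th percentile (unadjusted p = 0.00553 in limma), so that the change was larger but no longer called. The call of SOCS3 was also lost without siRNA-B (0.40, unadjusted p = 0.0170), and without either control array (0.53, unadjusted p = 0.0371 without control siRNA-1, and 0.52, unadjusted p = 0.0394 with the other left out), all in limma.

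SOCS2 and SOCS3 thus moved in opposite directions within the same arrays. The difference between their log2 fold changes, SOCS3 minus SOCS2, was 1.60, or 1.81 with the processed signal, and any factor that scales a whole array cancels in it. SOCS2 was lower and SOCS3 higher under all 12 alternative ways of fitting the data, with log2 fold changes of -1.37 to -0.77 and of 0.40 to 0.72. SOCS2 was called under 8 of these 12 and SOCS3 under 7 of them.

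SOCS1 gave no detectable difference. Its log2 intensity was 6.35 with siRNA-A, 6.39 with siRNA-B, 6.36 with control siRNA-1 and 6.43 with control siRNA-2, and the groups overlapped. Its log2 fold change was -0.026 (SE 0.11, 95% interval -0.28 to 0.22; limma, unadjusted p = 0.821). SOCS1 was dimmer than SOCS3, at 81.5 to 86.5 on the linear scale with a local background of 15 to 19.5. With the processed signal its log2 fold change was -0.13 without scaling and -0.096 after scaling.

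**Figure D2:**
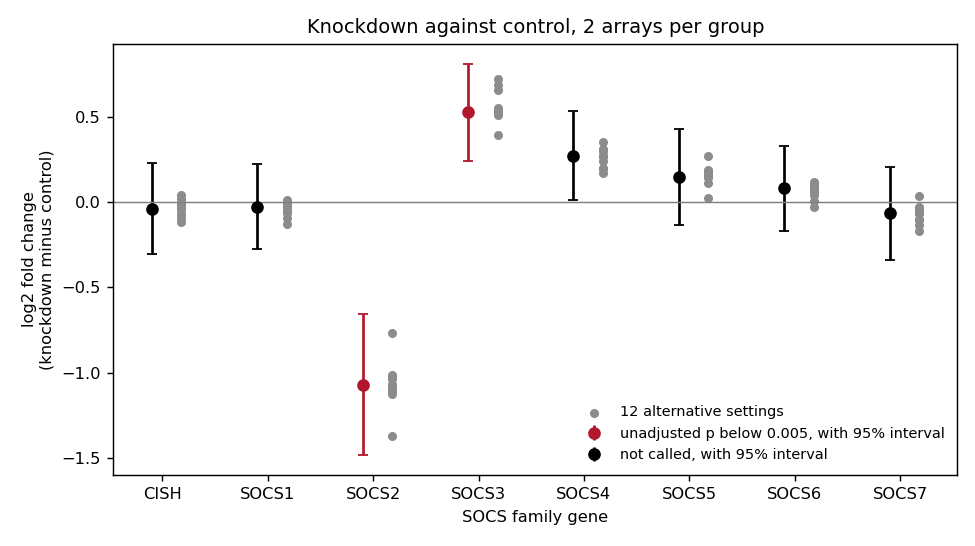
Log2 fold change (knockdown minus control, y axis) of each SOCS family gene (x axis), with 95% intervals from limma on 2 arrays per group. Grey points give the 12 alternative settings. Red marks SOCS2 (-1.07) and SOCS3 (0.53), the members with an unadjusted p below 0.005, whose grey points all lie on the same side of 0.

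SOCS4, SOCS5, SOCS6 and SOCS7 carry long N-terminal regions, and SOCS4 and SOCS5 are known as inhibitors of EGF receptor signaling. SOCS4 was the nearest to the threshold. Its log2 intensity was 11.49 with siRNA-A, 11.65 with siRNA-B, 11.26 with control siRNA-1 and 11.32 with control siRNA-2, so that both knockdown arrays were higher. The log2 fold change was 0.27 (SE 0.12, 95% interval 0.011 to 0.53; limma, unadjusted p = 0.0430, adjusted p = 0.609). It was called under 1 of 12 alternatives, normexp background correction with quantile normalization (0.30, unadjusted p = 0.00491 in limma). With the processed signal it was 0.17 without scaling (unadjusted p = 0.213 in limma) and 0.20 after scaling (unadjusted p = 0.0779 in limma).

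SOCS5, at chr2:46989289-46989348 of hg19, had a log2 intensity of 9.35 with siRNA-A, 9.59 with siRNA-B, 9.29 with control siRNA-1 and 9.36 with control siRNA-2. The siRNA-B array stood above the others, while siRNA-A lay between both controls. Its fold change on the log2 scale was 0.15 (SE 0.12, 95% interval -0.13 to 0.43; limma, unadjusted p = 0.265). It was 0.27 without siRNA-A and 0.026 with siRNA-B left out.

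SOCS6, at chr18:67993891-67993950, had a log2 intensity of 6.55 with siRNA-A, 6.63 with siRNA-B, 6.54 with control siRNA-1 and 6.48 with control siRNA-2. The knockdown arrays were higher by a small margin, with a log2 fold change of 0.080 (SE 0.11, 95% interval -0.17 to 0.33; limma, unadjusted p = 0.483). SOCS7, at chr17:36552120-36552179, had a log2 intensity of 6.86 with siRNA-A, 6.93 with siRNA-B, 6.86 with control siRNA-1 and 7.06 with control siRNA-2. Here the control arrays differed from each other by 0.20, more than either knockdown array differed from the control mean, and the log2 fold change was -0.065 (SE 0.12, 95% interval -0.34 to 0.21; limma, unadjusted p = 0.600). SOCS6 and SOCS7 were also dim, at 89.5 to 99 and at 116 to 133.5 on the linear scale. With the unscaled processed signal their log2 fold changes were -0.029 and -0.14.

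In the family as a whole, both knockdown arrays were higher than both control arrays for 3 members (SOCS3, SOCS4 and SOCS6), against 15.2% of all probes, and lower for 1 member (SOCS2), against 21.4% of all probes. Groups did not overlap for these 4 members, against 36.6% of all probes, and overlapped for the other 4. The median log2 fold change of the 8 members was 0.027, against -0.018 over all probes. All 8 members were brighter with siRNA-B than with siRNA-A, as were 61.7% of all probes. The median difference of siRNA-A minus siRNA-B over all probes was -0.060 in these unnormalized values, and its part in the direction of the members was not tested.

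To see whether the inputs and outputs of the pathway moved with its inhibitors, 8 lists of JAK-STAT genes were examined, each gene by its brightest probe. Of 149 listed genes 123 were tested and 6 were called, with 5 higher and 1 lower. Over all 16300 genes with a symbol, 1.3% were called, 0.65% higher and 0.65% lower. The median log2 fold change of the 123 genes was 0.042, against -0.022 over all genes with a symbol. Both knockdown arrays were higher than both control arrays for 26 of these genes (14.8% of all genes) and lower for 16 (21.3% of all genes). An unadjusted p below 0.05 in limma was found for 13 of the 123, against 7.88% of all genes.

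Among cytokine ligands, 14 of 28 genes were tested, and 0 were called by limma or had an unadjusted p below 0.05. The smallest p belonged to IL10, an anti-inflammatory cytokine, with log2 intensities of 6.08 with siRNA-A, 5.48 with siRNA-B, 5.36 with control siRNA-1 and 5.25 with control siRNA-2 and a log2 fold change of 0.37 (limma, unadjusted p = 0.0630), and its probe was well above background on only 1 array of each group. The siRNA-A spot of IL10 carried a weight of 0.5, which lowers its share in the knockdown mean. The IL10 value turned on that array, being 0.17 without siRNA-A and 0.77 without siRNA-B. It was 0.74 and 0.75 with the unscaled and scaled processed signal, and 0.23 with normexp background correction and quantile normalization. Among receptors, 31 of 36 genes were tested. Of these 2 were called higher and 1 lower, against 0.65% of all genes with a symbol in each direction. An unadjusted p below 0.05 in limma was found for 7 of the 31, with 4 higher and 3 lower, against 7.88% of all genes.

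The prolactin receptor PRLR had a log2 intensity of 7.70 with siRNA-A, 7.71 with siRNA-B, 7.20 with control siRNA-1 and 6.94 with control siRNA-2, which gave a log2 fold change of 0.64 (SE 0.12; limma, adjusted p = 0.183). Its other probes gave 0.62, which was called as well, and 0.50. IL10RA, the ligand-binding chain of the IL10 receptor, had 9.76, 9.87, 9.38 and 9.20 in the same order and a log2 fold change of 0.53 (SE 0.12; limma, adjusted p = 0.252). IFNAR2, a chain of the type I interferon receptor, had 12.02, 12.15, 12.49 and 12.66 and a log2 fold change of -0.49 (SE 0.12; limma, adjusted p = 0.303). Its other probes disagreed with this fall, with log2 fold changes of 0.26 and 0.050. The receptor calls rested on few arrays: those of IL10RA and IFNAR2 were lost without any 1 of the 4 arrays (0.43 to 0.62 and -0.58 to -0.41), and that of PRLR was lost without either knockdown array (0.65 without siRNA-A and 0.64 with siRNA-B left out), as well as without control siRNA-2 (0.51).

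The kinases JAK1, JAK2, JAK3 and TYK2 were all tested, of which 0 were called. An unadjusted p below 0.05 in limma was found for 1 of them, against 7.88% of all genes. This was TYK2, a kinase of interferon and IL12 receptors, with a log2 fold change of 0.31 (SE 0.11; limma, unadjusted p = 0.0189) and values of 8.82 and 8.81 against 8.52 and 8.48. Of 7 STAT genes 6 were tested, and 0 were called by limma or had an unadjusted p below 0.05. STAT3, which SOCS3 restrains, had the smallest p among them with a log2 fold change of 0.13 (limma, unadjusted p = 0.310), while another STAT3 probe printed on 10 spots gave -0.047. The former was 0.22 without siRNA-A and 0.032 with siRNA-B left out.

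Of 12 genes for other inhibitors of the pathway, PIAS proteins, phosphatases and adaptors, 0 were called and 0 had an unadjusted p below 0.05 in limma. Among them the smallest p was that of the ubiquitin ligase CBL with a log2 fold change of 0.27 (limma, unadjusted p = 0.0888). Its log2 intensity was 10.34 with siRNA-A, 10.65 with siRNA-B, 10.12 with control siRNA-1 and 10.33 with control siRNA-2. Without siRNA-B the CBL value was 0.11 (unadjusted p = 0.452 in limma), without siRNA-A it was 0.43 (unadjusted p = 0.0425 in limma), and it was 0.17 with control siRNA-1 left out. Of the 8 subunits of SOCS box ubiquitin ligases 0 were called by limma and 0 had an unadjusted p below 0.05. TCEB2, which encodes elongin B, had the smallest p with -0.18 (limma, unadjusted p = 0.145), and its values under the 12 alternatives were -0.23 to -0.084. Of 28 other SOCS box proteins 23 were tested, of which 0 were called by limma. An unadjusted p below 0.05 was found for 1 of them, against 7.88% of all genes. This was ASB4, a SOCS box protein with ankyrin repeats, with log2 intensities of 6.14 with siRNA-A, 5.32 with siRNA-B, 4.91 with control siRNA-1 and 4.95 with control siRNA-2 and a log2 fold change of 0.80 (SE 0.22; limma, unadjusted p = 0.00656). ASB4 was well above background on the siRNA-A array only, and its value rests largely on that array. With the control arrays set to the lowest signal well above background it was 1.56-fold higher. This fold uses the mean of both knockdown arrays, including the dim siRNA-B spot, and is no lower limit. The log2 fold change was 0.39 without siRNA-A (unadjusted p = 0.0192 in limma), 1.21 and called without siRNA-B (unadjusted p = 0.000563 in limma), and 2.74 and 2.78 but not called with the unscaled and scaled processed signal. It was also called in a fit of single spots (0.80, unadjusted p = 0.00398 in limma). With normexp background correction and quantile normalization ASB4 was 0.50 and not called.

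STAT target genes held 3 of the 6 calls, all higher, with 25 of 26 genes tested, against 0.65% of all genes called higher. An unadjusted p below 0.05 in limma was found for 4 of the 25, all higher, against 7.88% of all genes. CIITA, the activator of MHC class II genes, had a log2 intensity of 8.47 with siRNA-A, 8.29 with siRNA-B, 7.64 with control siRNA-1 and 7.46 with control siRNA-2 and a log2 fold change of 0.83 (SE 0.12; limma, adjusted p = 0.0753). Its other probe gave 0.16, which was not called. FCER2, the low-affinity IgE receptor, had 6.92, 6.67, 6.12 and 5.73 in the same order and a log2 fold change of 0.88 (SE 0.16; limma, adjusted p = 0.141), which was 1.46 and not called with the scaled processed signal and 1.43 and called with the unscaled one. FOS, a subunit of the AP-1 transcription factor, had 11.35, 11.83, 10.85 and 10.57 and a log2 fold change of 0.88 (SE 0.17; limma, adjusted p = 0.182). In all 3 genes both knockdown arrays were above both control arrays. With the processed signal CIITA was 1.04 after scaling, just missing the call (unadjusted p = 0.00500028 in limma), and 1.01 and called without scaling. FOS was 0.88 and 0.85 with the scaled and unscaled processed signal and was called with neither. CIITA and FOS were also picked by the study from these arrays for RT-qPCR, so that they are not independent evidence of the direction of this list. The call of CIITA was lost without siRNA-A (0.74) or control siRNA-2 (0.73), that of FCER2 without siRNA-A (0.75), without siRNA-B (1.00) or when control siRNA-2 was omitted (0.68), and that of FOS without siRNA-B (0.64) and without either control array (1.01 without control siRNA-1, otherwise 0.74).

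**Figure D3:**
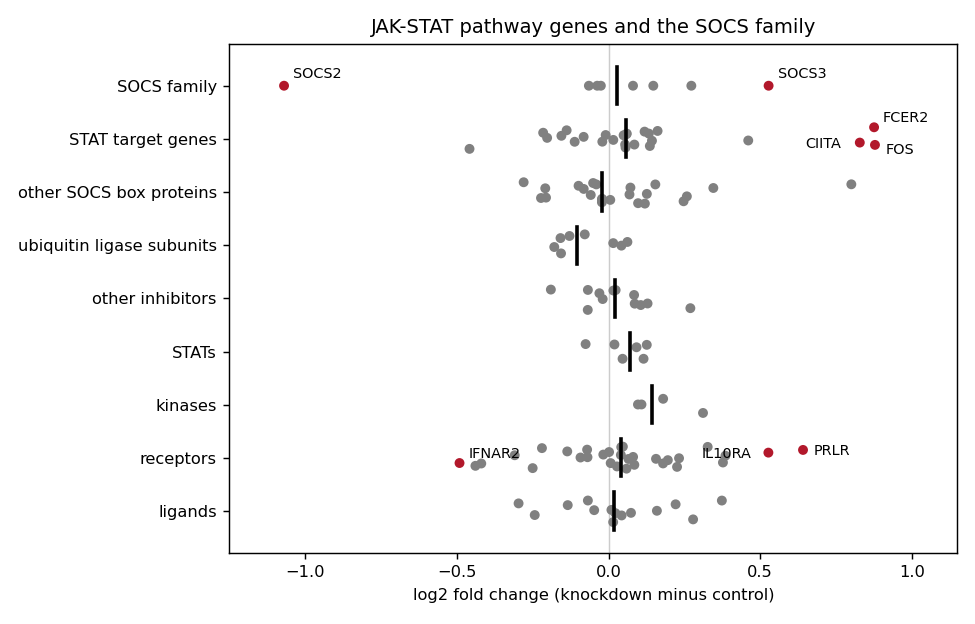
Log2 fold change (knockdown minus control, x axis) of each tested gene of 8 JAK-STAT lists and of the SOCS family (y axis), with 1 point per gene and a black line at the median of each row. Red points passed an unadjusted p of 0.005, and SOCS2 at -1.07 lies to the left of every other point.

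Finally, SOCS2 was compared with the other genes by its profile over the 4 arrays. Each of 19244 probes with a symbol that were well above background on all arrays was centred on its own mean, and the Euclidean distance to the SOCS2 profile was taken. The median distance was 1.13. The nearest was DRD5, the dopamine receptor D5, at a distance of 0.186, with log2 intensities of 6.94 with siRNA-A, 7.35 with siRNA-B, 8.09 with control siRNA-1 and 8.11 with control siRNA-2. It was followed by SP9, a zinc finger transcription factor (0.223), C10orf140 (0.241), SYNPO2, an actin-binding protein (0.268), and SOX4, a transcription factor of the SRY-box family (0.286). Their log2 fold changes were -0.96 for DRD5, -1.19 for SP9, -0.93 for C10orf140, -0.81 for SYNPO2 and -0.84 for SOX4. All of them were lowest with siRNA-A, intermediate with siRNA-B and highest in the controls, which is the pattern they were chosen for and was not tested.

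**Figure D4:**
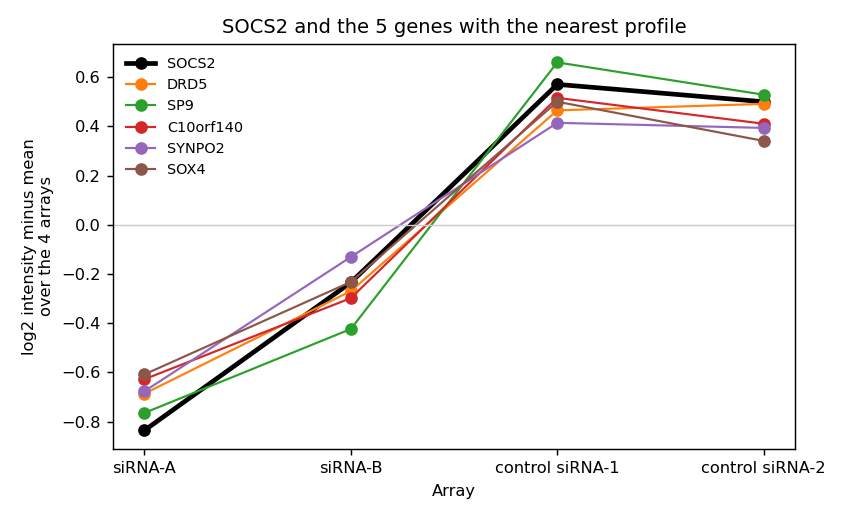
Log2 intensity minus the mean over the 4 arrays (y axis) in each array (x axis) for SOCS2 (thick black line) and the 5 genes with the nearest profile. In all 6 genes siRNA-A lies lowest and siRNA-B lies between it and the controls, and lines only join the values of 1 gene.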

How the data were processed

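RNA of 4 pooled samples was hybridised to single-colour Agilent arrays. The authors extracted spot values with Agilent Feature Extraction 10.5.1.1 (per the submitters' processing notes) and deposited an intensity per spot, without background correction or normalization, together with a score, the spot weight. A check found the intensity identical to the scanner's median signal in 100% of spots. Its log2 was taken here. How the weights were set is not given in the sources used here. Unnormalized intensity carries the brightness of each array into every fold change: the median log2 intensity was 8.56 (siRNA-A), 8.62 (siRNA-B), 8.58 (control siRNA-1) and 8.65 (control siRNA-2). The deposited scanner tables also hold a processed signal, an intensity made, per the file headers, with spatial and multiplicative detrending and with no local background subtraction set, and it exceeds the deposited intensity for bright spots such as SOCS2. The deposited scanner flag, a score of 0 or 1, was used to mark which of 43118 non-control spots were well above background. The share was 71.2% (siRNA-A) and 70.0% (siRNA-B), and lower than in the controls, with 74.3% for control siRNA-1 and 74.3% for control siRNA-2. Its part in the values of dim probes was not tested.

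Spots weighted above 0 on all arrays were kept (26219 probes) and identical spots averaged. Groups were compared, using the deposited weights and no covariate, in limma 3.58.1 (R 4.3.3). A probe was called at an unadjusted two-sided p below 0.005, without the methods' second criterion on identical spots, and Benjamini-Hochberg adjustment ran over all probes. On simulated data, 88 of 100 probes changed by 1 and 52 of 100 changed by 0.5 (log2) were called, with 0.484% of unchanged probes. Named genes were all members, each called gene of a list or, in a list with none, the gene with the smallest p, MLLT3 and the 5 probes nearest to the member with the smallest p. Members and lists were chosen with earlier results of these data known. The 1.56-fold value of ASB4 sets the mean of the knockdown arrays against the lowest signal well above background, or the probe's own if higher, in the control arrays. Promoters were taken from RefSeq on GRCh38.p14 and probe positions from the scanner tables (hg19). Alternatives were the processed signal, normexp, other normalizations, an intensity trend in the variance, a filter on dim probes, no weights, single spots, an adjusted p, another probe per gene and the omission of each array.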

Additional observations from a re-analysis of the deposited data

How the results depend on the processing

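SOCS2, SOCS3, SOCS4 and SOCS5 kept their direction under 12 of 12 alternatives. The 2 calls of the family fell to 0 with the processed signal, scaled or unscaled, to 0 at an adjusted p below 0.05, and to between 0 and 2 when 1 array was left out. They were 3 with normexp background correction and quantile normalization and 2 under the other alternatives. The number of JAK-STAT list genes called changed from 6 to 1 with the scaled and 3 with the unscaled processed signal. At an adjusted p below 0.05 it was 0. None of the 6 genes was called with the scaled processed signal, and only CIITA and FCER2 among them with the unscaled one. Each of the 6 calls was lost on the omission of at least 1 array, as given above. The number called was 8 with normexp and quantile normalization, and 7 with quantile or cyclic loess normalization, the filter on dim probes or the intensity trend. It was 6 without weights or with the probe of smallest p. The cause was not tested. With the scaled processed signal, SOCS3 was 0.63 (siRNA-A) and 0.81 (siRNA-B) above the controls on the log2 scale.

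Small fold changes turned sign. With the unscaled processed signal, SOCS6 gave -0.029 and STAT3 -0.019. With 1 array left out, CISH ranged from -0.12 to 0.042, SOCS1 from -0.064 to 0.013 and SOCS7 from -0.17 to 0.036. Leaving an array out assumes that the lone array of its group varies like the others. No paired analysis was possible because each array held a pool of 5 experiments. Over all probes, 31 had an adjusted p below 0.05, against 0 with the processed signal, each normalization or each omission of an array, 30 without weights, 49 with the filter on dim probes and 40 with the intensity trend, and 78 to 411 were called at the unadjusted threshold, against 345.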
